A study of Mus musculus with 20 samples.

Results

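The 34 genes described here are the hypoxia response and glycolysis genes of a mouse breast tumour data set: the oxygen-sensing machinery of the hypoxia-inducible factor (HIF), textbook HIF target genes, and the enzymes and transporters that carry glucose to lactate. They were chosen by name, and all 34 had a row among the 16411 genes of the deposited table and passed the filter on low values that left 16330 genes for testing. The tumours were breast cancers grown as mouse-derived allografts, profiled by poly(A) RNA sequencing to ask how resistance to the PARP inhibitor olaparib arises. MDA594 is the sensitive tumour line, and MDA594OR1 and MDA594OR2, called OR1 and OR2 below, are the olaparib-resistant lines. The 19 libraries fell into 6 groups, with 3 treated and 2 untreated OR2 tumours, 4 treated and 3 untreated OR1 tumours, and 3 treated and 4 untreated MDA594 tumours.

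Treated tumours carried an olaparib label. Untreated tumours carried a control label in the sample titles, the word vehicle in the table's header and the word untreated in the design text. The labels used here give no genotype, host strain, age, dose unit or time on drug, and each resistance comparison sets 1 resistant line against the same sensitive line. The 19 libraries carry 14 different codes at the end of their titles, 5 of which mark a left and a right tumour, taken here as tumours of 1 host. Both untreated OR2 libraries share 1 such code, and 2 of the 3 treated MDA594 libraries, numbered 1 and 2 below, share another. Per group there were 3 codes in treated and 1 in untreated OR2. OR1 had 3 and 2, and MDA594 2 and 3, in the same order. Libraries are numbered within their group, and the p-values below measure only the spread between these libraries. An additional library had conflicting treatment labels and entered no comparison.

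Cells sense oxygen through prolyl hydroxylases, which use it to mark the alpha subunit of HIF for destruction. When oxygen falls, the stabilised subunit pairs with its partner Arnt, binds short DNA elements and switches on genes for glucose uptake, glycolysis, blood vessel growth, acid handling and mitophagy. Solid tumours outgrow their blood supply, and glycolysis genes are also kept high in tumour cells by growth signals that do not involve oxygen.

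The stretch of 250 bases before the transcription start is shown for 5 members on which the results below turn, because HIF elements often lie there. The sequences come from RefSeq, build GRCm38.p6, and are written 5′ to 3′ in the direction of the gene. Capitals mark the letters ACGTG or GCGTG, or their reverse complements CACGT or CACGC.
Bnip3 (chr7:138909507-138909756, minus strand), with 5 matches, of which a CACGT and an ACGTG overlap in a palindrome
Bnip3: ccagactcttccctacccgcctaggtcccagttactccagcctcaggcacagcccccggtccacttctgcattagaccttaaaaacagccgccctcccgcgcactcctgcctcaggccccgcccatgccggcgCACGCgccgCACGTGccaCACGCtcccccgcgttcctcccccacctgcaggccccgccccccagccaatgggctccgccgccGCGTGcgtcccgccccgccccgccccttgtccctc
Egln3 (chr12:54203875-54204124, minus strand), with 1 match
Egln3: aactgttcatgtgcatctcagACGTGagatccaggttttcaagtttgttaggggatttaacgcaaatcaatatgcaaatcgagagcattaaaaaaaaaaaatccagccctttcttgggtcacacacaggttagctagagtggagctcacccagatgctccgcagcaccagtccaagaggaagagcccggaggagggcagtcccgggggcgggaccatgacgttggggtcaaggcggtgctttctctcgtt
Ero1a (chr14:45318573-45318822, minus strand), with 3 matches
Ero1a: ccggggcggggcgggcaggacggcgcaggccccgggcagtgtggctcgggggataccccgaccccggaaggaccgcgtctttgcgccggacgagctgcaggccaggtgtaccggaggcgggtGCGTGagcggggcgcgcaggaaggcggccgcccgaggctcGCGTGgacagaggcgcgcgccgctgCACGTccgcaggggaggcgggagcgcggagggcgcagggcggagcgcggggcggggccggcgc
Slc2a1 (chr4:119108495-119108744, plus strand), with 2 matches
Slc2a1: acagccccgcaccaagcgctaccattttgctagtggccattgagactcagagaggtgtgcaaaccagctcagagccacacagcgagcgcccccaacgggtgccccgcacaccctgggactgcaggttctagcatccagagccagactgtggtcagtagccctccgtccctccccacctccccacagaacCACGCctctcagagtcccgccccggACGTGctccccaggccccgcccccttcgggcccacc
Pdk1 (chr2:71872974-71873223, plus strand, the first of 2 listed start sites), with 1 match
Pdk1: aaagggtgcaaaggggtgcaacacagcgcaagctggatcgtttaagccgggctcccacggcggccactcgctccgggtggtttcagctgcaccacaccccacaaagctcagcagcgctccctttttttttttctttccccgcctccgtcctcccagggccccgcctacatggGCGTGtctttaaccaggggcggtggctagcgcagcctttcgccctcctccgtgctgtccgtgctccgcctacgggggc

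In Bnip3 the overlapping pair began 108 bases before the start site. In Egln3 the match began 229 bases before it. The Slc2a1 matches began 61 and 36 bases before the start, and the Pdk1 match 78 bases before it. Of the 34 genes, 32 were matched to the RefSeq table, with 46 start sites between them, and 36 of the 46 windows (78.3%) held at least 1 of the motifs on either strand, against 38.6% of all 32851 windows of that length. ACGTG or its complement stood in 52.2% of the member windows and 16.6% of all windows, and GCGTG or its complement in 23 of the 46 member windows and 28.2% of all windows. Gpi1 and Tpi1 held neither motif in any listed window. These are matches of letters, and binding was not measured here.

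Values are given on a log2 scale, as counts per M reads of the library (log2 CPM, with M for mega). The reads of the table summed to 36.8 M to 118 M per library, and all but Car9 among the members had at least 278 reads in every library. Car9 ranged from 19 to 829 reads. Epithelial markers (6 of 8 in the table, among them Epcam, Krt8 and Krt18) summed to between 1210 and 3910 CPM in every library, with Krt14 at 0 reads in 2 libraries. Skeletal muscle markers (14 of 15 in the table) summed to 1650 CPM in treated MDA594 library 3, to 86.4 CPM in untreated OR1 library 1 and to 69.6 CPM in treated OR1 library 3, with 4.82 to 27.5 CPM in the other 16 libraries. Because whole tumours were sequenced, fewer cells of a type and less RNA per cell cannot be told apart.

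The members were lowest in treated MDA594 tumours and highest in untreated OR2 tumours. The mean log2 CPM of the 34 genes was 7.18 ± 0.04 in treated OR2 tumours (SD, n = 3) and 7.80 ± 0.18 in untreated OR2 tumours (n = 2). It was 7.26 ± 0.37 in treated OR1 tumours (n = 4) and 7.26 ± 0.06 in untreated OR1 tumours (n = 3). MDA594 tumours had 6.81 ± 0.04 with olaparib (n = 3) and 7.21 ± 0.17 without (n = 4). Every treated MDA594 library was below every untreated MDA594 library, and the same held in OR2, whereas the treated OR1 libraries, at 6.84 to 7.64, lay on both sides of the untreated ones, at 7.21 to 7.32. Untreated OR2 library 1 had the highest value of the 19 libraries in 17 of the 34 genes and untreated OR2 library 2 in 6. Treated MDA594 library 2 had the lowest in 8, and treated OR1 library 3 in 7.

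**Figure D1:**
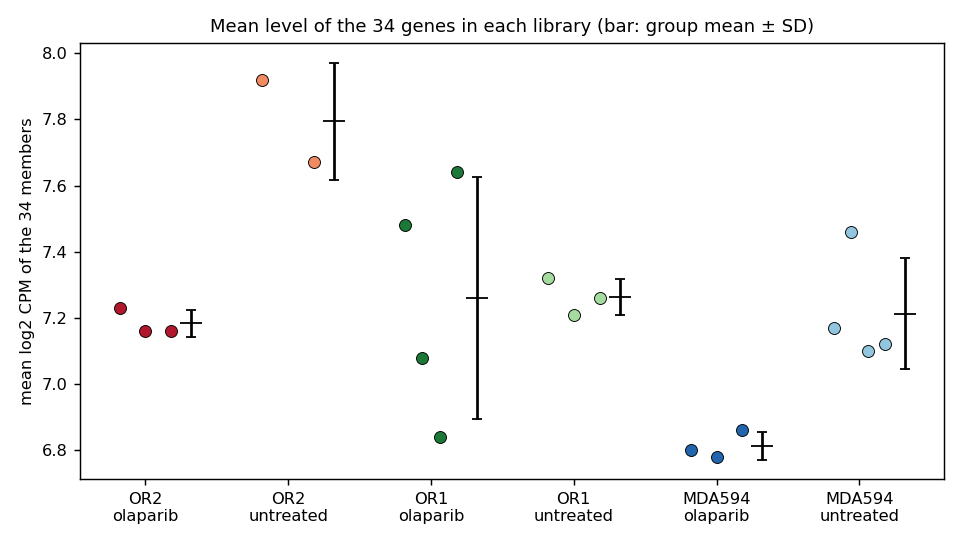
Mean log2 CPM of the 34 members (y axis) in each of the 19 libraries (points), by group on the x axis. The bar beside each group gives its mean ± SD. The 3 treated MDA594 libraries sit between 6.78 and 6.86, below the other libraries' 6.84 to 7.92 except for an overlap with treated OR1 library 3 at 6.84.

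**Figure D2:**
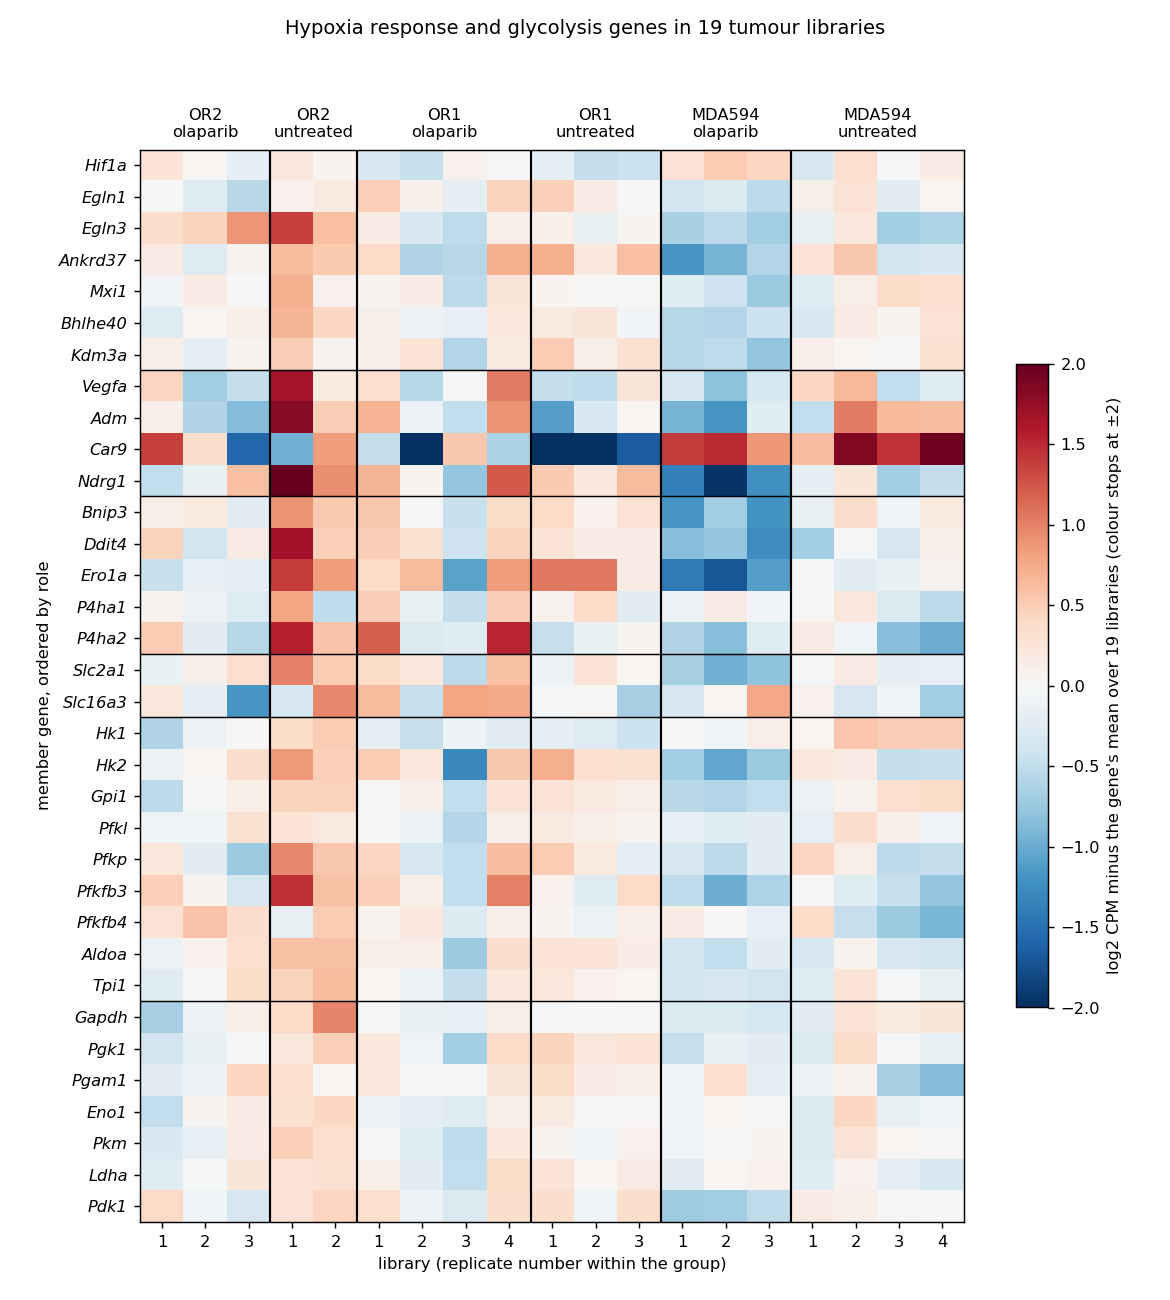
Log2 CPM of each member (rows, ordered by role) in each library (columns, by group), shown as the difference from that gene's mean over 19 libraries, with colours ending at ±2. Treated MDA594 columns are mostly blue and untreated OR2 columns mostly red, while Car9 is high in MDA594 and low in untreated OR1, and Hif1a is higher in treated MDA594 than in OR1.

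Olaparib-treated MDA594 tumours were compared with untreated ones to see how the sensitive line responded. Of the 34 genes, 28 were lower and 6 higher, with a median of -0.37, against a median of 0.01 over all genes tested. limma called 0 members at an adjusted p under 0.05, where it called 0.122% of all genes, and voom on the recovered reads also called 0. At an unadjusted p under 0.05 there were 13 members lower and 0 higher, or 38.2% of the members against 16.8% of all genes. In 15 members every treated library lay below every untreated one, against 12.2% of all genes, and in 0 members above, against 12.7%. The count of members called lower was 2 without untreated MDA594 library 1, where 2.38% of all genes were called. It was 1 without treated OR2 library 1 or 3, where 1.04% and 0.692% of all genes were called. With the number that follows the line's name in the titles as a term in the model, 6 members were called lower and 2 higher, and 19.1% of all genes were called. In that fit the response rested on untreated MDA594 libraries 3 and 4, of 1 code, and treated libraries 1 and 2, of another. The 6 genes with a positive difference were Hif1a, P4ha1, Slc16a3, Pfkfb4, Pgam1 and Ldha. Macrophage markers moved with this comparison: 9 of 10 were higher, and they summed to 661 to 1080 CPM in treated MDA594 libraries, against 292 to 471 CPM in untreated ones. Mitochondrially encoded genes, listed as a possible sign of RNA quality, were lower in 8 of 8, at 54000 to 75000 CPM in treated and 80900 to 119000 CPM in untreated MDA594 libraries. No separate measure of RNA quality was used here. Markers of cycling cells were higher in 11 of 12, at 2120 to 2340 CPM in treated and 1630 to 1980 CPM in untreated ones. Neutrophil markers were lower in 8 of 9, at 34.5 to 40.6 CPM in treated and 45.3 to 154 CPM in untreated ones. Endothelial markers were higher in 9 of 10, at 101 to 215 CPM in treated and 64 to 177 CPM in untreated ones. T cell and fibroblast markers were higher in 10 of 10 each and muscle markers in 14 of 14, also with overlapping sums. Their part in the result was not tested.

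In OR1, where the same question was asked of the first resistant line, 14 members were higher and 20 lower with olaparib, with a median of -0.07 against -0.01 over all genes. limma called 0 members and 0% of all genes, voom called 0, and 0 members had an unadjusted p under 0.05, against 5.87% of all genes. In 0 members did the groups separate, in either direction, where 7.43% of all genes were higher in every treated OR1 library and 7.81% lower. The 2 treated OR1 tumours taken to share a host were unlike: library 2 was above library 3 in 27 of the 34 genes, by a median of 0.32, where the median over all genes was 0.01. Without treated OR1 library 3 the median of the members was 0.02, without library 4 it was -0.16, and without library 1 it was -0.11. Without untreated OR1 library 1 it was -0.02. Macrophage markers were higher in 10 of 10, at 283 to 569 CPM in treated and 131 to 177 CPM in untreated OR1 libraries, and cycling markers lower in 12 of 12, at 1270 to 1870 CPM in treated and 1930 to 2750 CPM in untreated ones. Mitochondrially encoded genes were higher in 8 of 8, at 48600 to 104000 CPM in treated and 30800 to 54200 CPM in untreated OR1 libraries. Neutrophil markers were higher in 8 of 9, at 49.0 to 95.6 CPM in treated and 18.1 to 43.0 CPM in untreated ones, and T cell markers in 10 of 10, at 9.49 to 15.9 CPM in treated and 3.32 to 6.07 CPM in untreated ones. Their part in the result was not tested.

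In OR2, 32 members were lower and 2 higher with olaparib, with a median of -0.55 against 0.00 over all genes. limma called 0 members and 0% of all genes, and voom called 0. There were 11 members lower at an unadjusted p under 0.05 and 0 higher, or 32.4% of the members against 6.64% of all genes. In 22 members every treated OR2 library lay below both untreated ones, against 10.6% of all genes, and in 0 members above, against 10.5%. Pfkfb4 and Car9 had the positive differences. All 6 red cell markers and all 9 neutrophil markers in the table were lower in treated OR2 as well. Red cell markers summed to 54.7 to 443 CPM in treated OR2 libraries, against 1190 and 2440 CPM in untreated ones, and neutrophil markers to 65.9 to 162 CPM in treated, against 378 and 173 CPM in untreated ones. Muscle markers were lower in 12 of 14, at 4.84 to 7.25 CPM in treated and 8.21 to 9.18 CPM in untreated ones. Their part in the result was not tested.

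Averaged over the 3 lines, 29 members were lower and 5 higher with olaparib, with a median of -0.34 against 0.00 over all genes. limma called 0 members, where it called 0.00612% of all genes, and voom called 0. At an unadjusted p under 0.05 were 19 members, all lower, or 55.9% against 13.7% of all genes. The smallest adjusted p was that of Bnip3, with a difference of -0.63 (SE 0.15, adjusted p = 0.125). Ero1a followed with -1.02 (SE 0.27, adjusted p = 0.132) and Gpi1 with -0.48 (SE 0.13, adjusted p = 0.144). Bnip3 passed the threshold without untreated MDA594 library 1 (adjusted p = 0.0412) or treated OR2 library 1 (adjusted p = 0.0439), and either setting called 2 members lower, with 1.52% and 2.31% of all genes called. With the title number in the model, limma called 12 members lower and 0 higher, and 14.9% of all genes. The MDA594 part of that mean rested on 1 code per treatment.

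**Figure D3:**
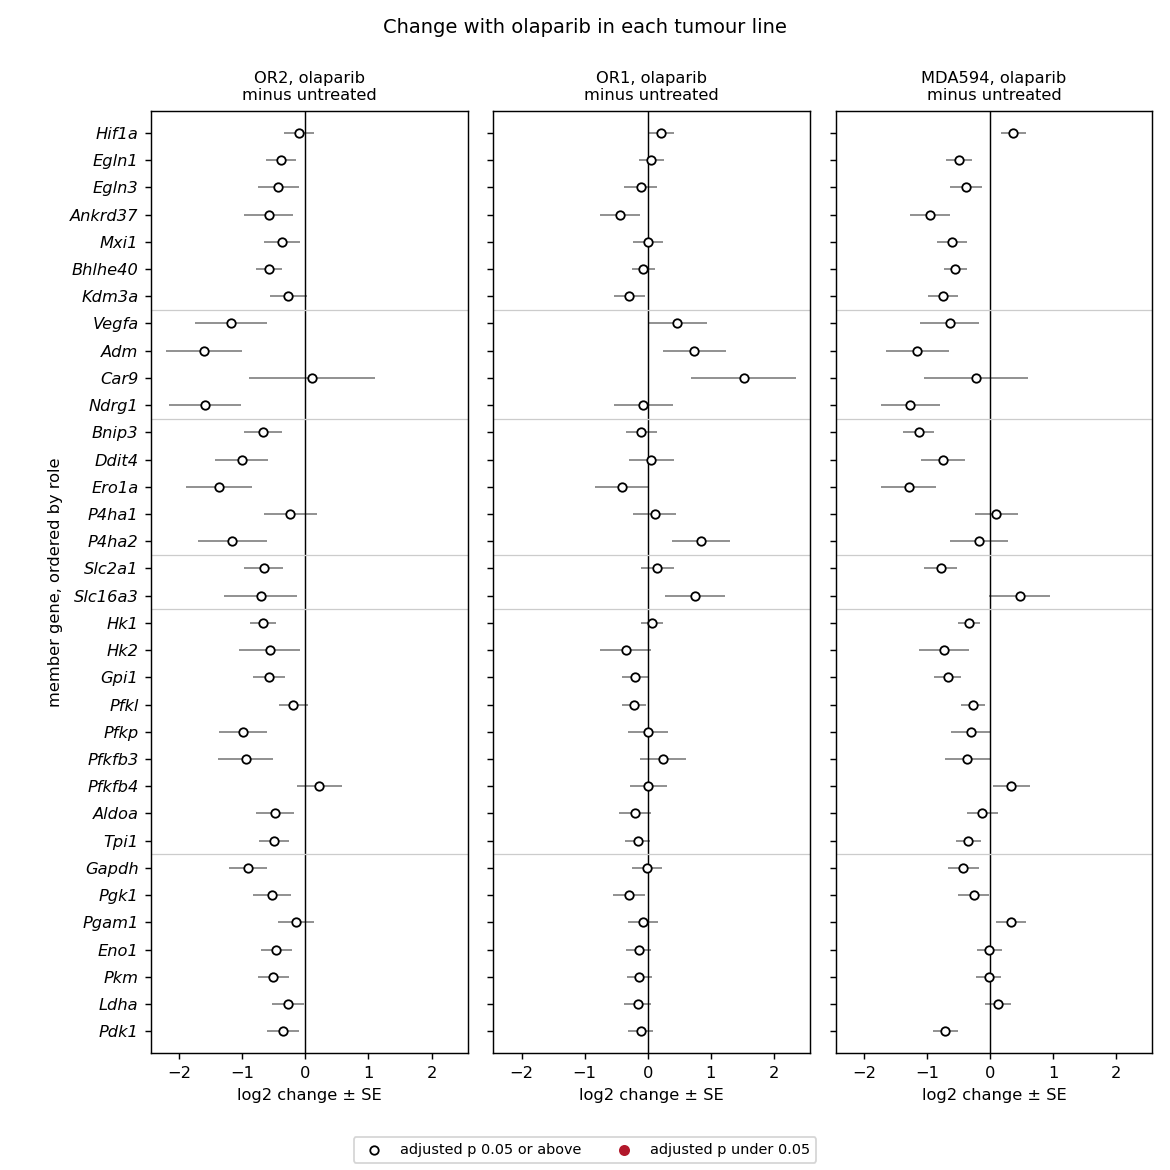
Log2 change with olaparib (x axis) of each member (y axis, ordered by role) in OR2, OR1 and MDA594, with bars for the SE of the fit. In OR2 32 of 34 points and in MDA594 28 of 34 points lie left of 0, in OR1 20 of 34, and none reached an adjusted p under 0.05.

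The resistant lines were then compared with MDA594 under olaparib. In treated OR2 tumours 27 members were higher and 7 lower than in treated MDA594 tumours, with a median of 0.41 against -0.02 over all genes. limma called 2 members higher, Bnip3 and Egln3, and 0 lower, where it called 1.58% of all genes, and voom called 2. In 17 members every treated OR2 library lay above every treated MDA594 library, against 12.8% of all genes, and in 1 member, Hif1a, below, against 11.1%. In treated OR1 tumours 29 members were higher and 5 lower than in treated MDA594 tumours, with a median of 0.52 against 0.00 over all genes. limma called 1 member higher, Bnip3, and 0 lower, where it called 0.545% of all genes, and voom called 0. In 11 members every treated OR1 library lay above every treated MDA594 library, against 16.2% of all genes, and in 3 members, Hif1a, Car9 and Hk1, below, against 15.9%. Unadjusted p-values under 0.05 were found for 12 members higher and 0 lower in OR2, or 35.3% of the members against 17.3% of all genes. In OR1 they were found for 15 higher and 2 lower, or 17 of 34 members against 18% of all genes. These line comparisons share the treated MDA594 tumours with each other and with the response of MDA594. The count of members called higher was 3 in OR2 and 6 in OR1 without treated OR1 library 3, where limma called 1.51% and 1.56% of all genes. In OR1 it was 5 without treated OR2 library 1 and 2 without treated OR2 library 3, with 2.33% and 1.48% of all genes called. In OR2 it was 1 without any 1 of the 5 OR2 libraries, with 1.01% to 3.29% of all genes called, and the libraries without which it was 0 are named beside Bnip3 and Egln3. Neutrophil markers were higher in 9 of 9 in treated OR2, at 65.9 to 162 CPM against 34.5 to 40.6 CPM in treated MDA594 libraries. Cycling markers were lower in 12 of 12 in treated OR1, at 1270 to 1870 CPM against 2120 to 2340 CPM. Macrophage markers were lower there in 8 of 10, at 283 to 569 CPM against 661 to 1080 CPM, and T cell markers in 10 of 10, at 9.49 to 15.9 CPM against 20.1 to 40.5 CPM. Neutrophil markers were higher in 7 of 9 in treated OR1, at 49.0 to 95.6 CPM against 34.5 to 40.6 CPM. Endothelial, red cell and muscle markers were lower in 10 of 10, 6 of 6 and 14 of 14 in both lines, with overlapping sums. The median of the endothelial markers was -0.82 in OR2 and -0.8 in OR1. T cell markers were lower in 10 of 10 in treated OR2, with a median of -1.78 and overlapping sums. Their part in the results was not tested. Leaving out treated MDA594 library 3 and untreated OR1 library 1, the libraries highest in muscle markers, gave medians of 0.38 in OR2 and 0.56 in OR1 with 0 members called, and limma then called 0.0551% and 0% of all genes. The alternative leaves treated MDA594 libraries 1 and 2, which share a code. It was chosen after the data were seen.

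Without olaparib, 33 members were higher and 1, Car9, was lower in untreated OR2 than in untreated MDA594 tumours, with a median of 0.53 against -0.01 over all genes. limma called 0 members, where it called 0.214% of all genes, voom called 0, and 11 were higher and 0 lower at an unadjusted p under 0.05, or 32.4% of the members against 10.6% of all genes. In 18 members both untreated OR2 libraries lay above every untreated MDA594 library, against 12.6% of all genes, and in 0 members below, against 12%. Without untreated OR2 library 2, 3 members were called higher, with 1.37% of all genes called. Neutrophil markers were again higher beside them, in 9 of 9, and red cell markers were higher in 6 of 6, unlike under olaparib. Red cell markers summed to 1190 and 2440 CPM in untreated OR2 libraries, against 125 to 760 CPM in untreated MDA594 libraries, and neutrophil markers to 378 and 173 CPM against 45.3 to 154 CPM. Mitochondrially encoded genes were lower in 8 of 8, at 75500 and 48100 CPM against 80900 to 119000 CPM. Muscle markers were higher in 13 of 14, at 8.21 to 9.18 CPM against 4.82 to 7.77 CPM, and macrophage markers in 6 of 10, at 511 to 530 CPM against 292 to 471 CPM. Their part in the result was not tested. In untreated OR1 tumours 26 members were higher and 8 lower than in untreated MDA594 tumours, with a median of 0.14 against 0.02 over all genes. limma called 0 members, where it called 0.11% of all genes, voom called 0, and 1 was higher and 2 lower at an unadjusted p under 0.05, or 8.82% of the members against 13.6% of all genes. In 5 members every untreated OR1 library lay above every untreated MDA594 library, against 10.4% of all genes, and in 2 members, Car9 and Hk1, below, against 9.85%. The count called lower was 2 without untreated MDA594 library 1 or treated OR2 library 1, with 1.21% and 0.557% of all genes called, and 1 without treated OR2 library 3, with 0.355% called. Mitochondrially encoded genes were lower in 8 of 8 there, at 30800 to 54200 CPM in untreated OR1 libraries, and muscle markers higher in 14 of 14, at 13.7 to 86.4 CPM against 4.82 to 7.77 CPM in untreated MDA594 libraries. Macrophage markers were lower in 10 of 10, at 131 to 177 CPM against 292 to 471 CPM, and neutrophil markers in 9 of 9, at 18.1 to 43.0 CPM against 45.3 to 154 CPM. Red cell markers were higher in 6 of 6, at 839 to 1680 CPM against 125 to 760 CPM. Their part in the result was not tested.

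Whether the lines responded differently was tested directly. The response of OR1 minus that of MDA594 was positive in 26 members and negative in 8, with a median of 0.42, and the response of OR2 minus that of MDA594 was positive in 11 and negative in 23, with a median of -0.27. limma called 0 members and 0% of all genes in either test, and voom called 0. At an unadjusted p under 0.05 were 3 members in the OR1 test, Adm, Bnip3 and Slc2a1, all positive, and 0 in the OR2 test. The 3 members were 8.82% of the 34, against 7.33% of all genes, and in the OR2 test the share of all genes was 6.16%. Adm differed by 1.88 (SE 0.71, adjusted p = 0.673), Bnip3 by 1.03 (SE 0.35, adjusted p = 0.673) and Slc2a1 by 0.93 (SE 0.36, adjusted p = 0.673). In the OR2 test the smallest p-values belonged to Slc16a3 at -1.18 (SE 0.75, adjusted p = 0.925), Pkm at -0.50 (SE 0.32, adjusted p = 0.925) and Hif1a at -0.47 (SE 0.31, adjusted p = 0.925). Without untreated OR2 library 1 the median of the OR2 test was 0.07. Without untreated MDA594 library 1 it was -0.13, and without treated OR2 library 1 it was -0.16. With only libraries of the ABA45 name series, the median of the OR1 test was 0.02.

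**Figure D4:**
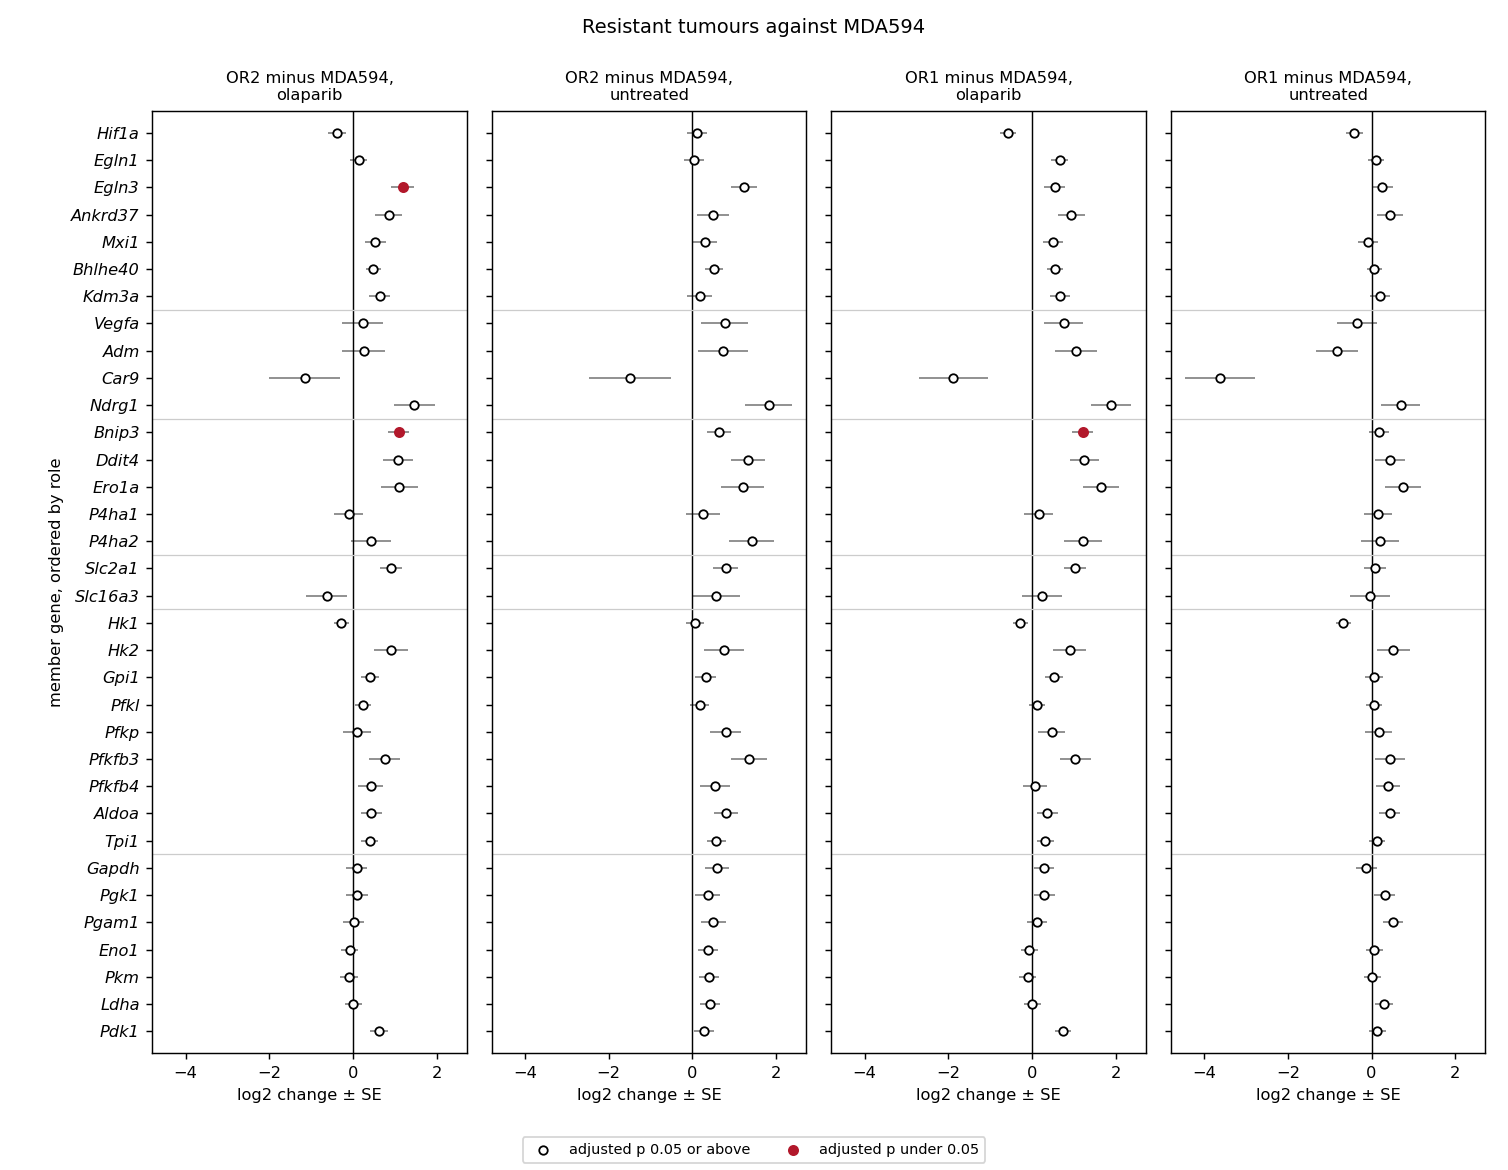
Log2 difference of each member (y axis, ordered by role) between OR2 or OR1 and MDA594 tumours of the same treatment (x axis), with bars for the SE of the fit. Filled points, Bnip3 in both treated comparisons and Egln3 in treated OR2, had an adjusted p under 0.05, and Car9 has the lowest point in all 4 panels.

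The members of oxygen sensing and HIF regulation comprised 7 genes. In treated OR2 against treated MDA594 6 were higher and 1 lower, with a median difference of 0.53, and in treated OR1 6 were higher and 1 lower, with a median of 0.55. The gene that was lower in both was Hif1a, which encodes the oxygen-labile alpha subunit itself and is regulated mainly at the protein level. Hif1a had 7.39, 7.17 and 6.94 log2 CPM in treated OR2 tumours, against 7.36 and 7.19 in untreated OR2 tumours. Hif1a in OR1 had 6.84, 6.69, 7.23 and 7.14 log2 CPM in treated OR1 tumours, against 6.94, 6.66 and 6.71 in untreated OR1 tumours. Hif1a in MDA594 had 7.43, 7.64 and 7.56 log2 CPM in treated MDA594 tumours, against 6.81, 7.48, 7.15 and 7.29 in untreated MDA594 tumours. The 3 treated MDA594 libraries were above every treated OR2 and OR1 library, while treated and untreated MDA594 libraries overlapped. The difference was -0.38 (SE 0.21, adjusted p = 0.362) in treated OR2 and -0.57 (SE 0.20, adjusted p = 0.165) in treated OR1, and the response of MDA594 was 0.37 (SE 0.20, adjusted p = 0.363).

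Egln3 (ENSMUSG00000035105.6) encodes a HIF prolyl hydroxylase that is itself induced by HIF. Egln3 had 7.98, 8.06 and 8.50 log2 CPM in treated OR2 tumours, against 8.99 and 8.22 in untreated OR2 tumours. Egln3 in OR1 had 7.77, 7.30, 7.11 and 7.74 log2 CPM in treated OR1 tumours, against 7.73, 7.47 and 7.68 in untreated OR1 tumours. Egln3 in MDA594 had 6.98, 7.10 and 6.92 log2 CPM in treated MDA594 tumours, against 7.48, 7.84, 6.95 and 7.0 in untreated MDA594 tumours. All 5 OR2 libraries lay above all 14 others. Egln3 rose in treated OR2 relative to treated MDA594 tumours, by 1.19 (SE 0.27, adjusted p = 0.0373), a 2.28-fold difference. With the title number in the model that difference was 0.08 (adjusted p = 0.936) and the call was lost. In untreated OR2 Egln3 differed by 1.23 (SE 0.31, adjusted p = 0.112), and in treated OR1 by 0.54 (SE 0.26, adjusted p = 0.29). The untreated difference passed the threshold without untreated OR2 library 2 (adjusted p = 0.0167). The response to olaparib was -0.43 in OR2, -0.11 in OR1 and -0.38 in MDA594, with no call. The call in treated OR2 was lost without treated MDA594 library 1 (adjusted p = 0.0566), 2 (adjusted p = 0.0867) or 3 (adjusted p = 0.239), or treated OR2 library 3 (adjusted p = 0.0879). It was also lost without untreated OR1 library 3 (adjusted p = 0.0535) or treated OR1 library 1 (adjusted p = 0.053), 2 (adjusted p = 0.058) or 4 (adjusted p = 0.054), and over all 32 alternatives adjusted p ran from 0.00912 to 0.936.

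Egln1, the hydroxylase that sets HIF levels in normal oxygen, was not called in any comparison. Egln1 had 6.76, 6.49 and 6.20 log2 CPM in treated OR2 tumours, against 6.83 and 6.92 in untreated OR2 tumours. Egln1 in OR1 had 7.22, 6.85, 6.55 and 7.20 log2 CPM in treated OR1 tumours, against 7.22, 6.91 and 6.75 in untreated OR1 tumours. Egln1 in MDA594 had 6.36, 6.48 and 6.23 log2 CPM in treated MDA594 tumours, against 6.87, 7.04, 6.54 and 6.78 in untreated MDA594 tumours. Every treated OR1 library was above every treated MDA594 library, with a difference of 0.66 (SE 0.20, adjusted p = 0.121). Every treated MDA594 library was below every untreated one, with a response of -0.49 (SE 0.20, adjusted p = 0.223). The other 4 genes of this role were the ankyrin repeat gene Ankrd37, the MYC antagonist Mxi1, the repressor Bhlhe40 and the histone demethylase Kdm3a. Their differences in treated OR2 and treated OR1 against treated MDA594 ran from 0.49 for Bhlhe40 to 0.94 for Ankrd37, and their responses in MDA594 from -0.95 for Ankrd37 to -0.55 for Bhlhe40. In all 4 every treated OR2 library lay above every treated MDA594 library, and none was called.

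The 4 genes grouped as secreted and surface products were the angiogenic ligand Vegfa, the vasodilator peptide Adm, the surface carbonic anhydrase Car9 and Ndrg1, an intracellular stress-response protein. Ndrg1 had 6.86, 7.20 and 7.96 log2 CPM in treated OR2 tumours, against 9.60 and 8.29 in untreated OR2 tumours. Ndrg1 in OR1 had 8.03, 7.41, 6.58 and 8.58 log2 CPM in treated OR1 tumours, against 7.87, 7.56 and 7.99 in untreated OR1 tumours. Ndrg1 in MDA594 had 5.98, 5.40 and 6.12 log2 CPM in treated MDA594 tumours, against 7.16, 7.60, 6.66 and 6.87 in untreated MDA594 tumours. The 3 treated MDA594 libraries were the lowest of all 19, and treated and untreated values did not overlap within MDA594 or within OR2. The response was -1.60 (SE 0.57, adjusted p = 0.63) in OR2 and -1.26 (SE 0.47, adjusted p = 0.195) in MDA594. Treated OR1 differed from treated MDA594 by 1.89 (SE 0.47, adjusted p = 0.0808), which passed the threshold without treated OR1 library 3 (adjusted p = 0.0325), treated OR2 library 1 (adjusted p = 0.0423) or treated OR2 library 3 (adjusted p = 0.0482). Untreated OR2 differed from untreated MDA594 by 1.82 (SE 0.56, adjusted p = 0.199), which passed it without untreated OR2 library 2 (adjusted p = 0.0453), when untreated OR2 library 1 at 9.60 stood alone.

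Car9 was the 1 member lower in untreated OR2 than in untreated MDA594, and it was lower in the other 3 comparisons of lines too. Car9 had 2.76, 1.75 and -0.17 log2 CPM in treated OR2 tumours, against 0.44 and 2.23 in untreated OR2 tumours. Car9 in OR1 had 0.92, -0.85, 1.94 and 0.77 log2 CPM in treated OR1 tumours, against -1.15, -1.20 and -0.26 in untreated OR1 tumours. Car9 in MDA594 had 2.79, 2.89 and 2.26 log2 CPM in treated MDA594 tumours, against 2.02, 3.25, 2.84 and 3.34 in untreated MDA594 tumours. Both OR1 groups lay entirely below the MDA594 group of the same treatment, and the OR2 libraries spread from -0.17 to 2.76. The difference between untreated OR1 and untreated MDA594 was -3.62 (SE 0.83, adjusted p = 0.0901), the largest in size of any member in any comparison. It passed the threshold without untreated MDA594 library 1 (adjusted p = 0.034), treated OR2 library 1 (adjusted p = 0.0388) or treated OR2 library 3 (adjusted p = 0.0422). The response of Car9 within OR1 was 1.52 (SE 0.83, adjusted p = 0.886), and these values rest on 19 to 829 reads per library.

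Vegfa had 8.02, 6.90 and 7.12 log2 CPM in treated OR2 tumours, against 9.26 and 7.79 in untreated OR2 tumours. Vegfa in OR1 had 7.93, 7.02, 7.59 and 8.63 log2 CPM in treated OR1 tumours, against 7.12, 7.08 and 7.83 in untreated OR1 tumours. Vegfa in MDA594 had 7.26, 6.79 and 7.25 log2 CPM in treated MDA594 tumours, against 8.01, 8.25, 7.11 and 7.35 in untreated MDA594 tumours. Treated and untreated libraries overlapped in all 3 lines, and untreated OR2 library 1, at 9.26, was the highest. The response was -1.18 (SE 0.57, adjusted p = 0.754) in OR2, 0.47 (SE 0.47, adjusted p = 0.965) in OR1 and -0.64 (SE 0.47, adjusted p = 0.512) in MDA594. Adm had 4.01, 3.32 and 3.04 log2 CPM in treated OR2 tumours, against 5.73 and 4.40 in untreated OR2 tumours. Adm in OR1 had 4.61, 3.80, 3.42 and 4.81 log2 CPM in treated OR1 tumours, against 2.82, 3.61 and 3.95 in untreated OR1 tumours. Adm in MDA594 had 2.98, 2.73 and 3.67 log2 CPM in treated MDA594 tumours, against 3.42, 4.95, 4.57 and 4.53 in untreated MDA594 tumours. Both untreated OR2 libraries were above all treated ones, while in MDA594 the lowest untreated library fell among the treated ones. The response of Adm was -1.61 (SE 0.61, adjusted p = 0.63) in OR2, 0.74 (SE 0.50, adjusted p = 0.918) in OR1 and -1.15 (SE 0.50, adjusted p = 0.26) in MDA594.

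The 5 genes of mitophagy, stress signalling, protein folding and collagen hydroxylation had the largest median difference of the 6 roles between resistant and sensitive tumours under olaparib, at 1.07 in treated OR2 and 1.22 in treated OR1. Bnip3 (ENSMUSG00000078566.9), a receptor on the outer mitochondrial membrane that marks mitochondria for mitophagy, was the member called in both lines. Bnip3 had 7.89, 7.97 and 7.56 log2 CPM in treated OR2 tumours, against 8.67 and 8.29 in untreated OR2 tumours. Bnip3 in OR1 had 8.30, 7.74, 7.33 and 8.14 log2 CPM in treated OR1 tumours, against 8.17, 7.85 and 8.06 in untreated OR1 tumours. Bnip3 in MDA594 had 6.59, 7.07 and 6.57 log2 CPM in treated MDA594 tumours, against 7.62, 8.12, 7.70 and 7.96 in untreated MDA594 tumours. The 3 treated MDA594 libraries were below all 16 others, and treated and untreated libraries also separated in OR2 but overlapped in OR1. Bnip3 rose in treated OR2 relative to treated MDA594, by 1.09 (SE 0.25, adjusted p = 0.0409), a 2.13-fold difference. It rose in treated OR1 relative to treated MDA594, by 1.21 (SE 0.25, adjusted p = 0.036), a 2.32-fold difference. Without olaparib the differences were 0.63 (SE 0.29, adjusted p = 0.463) in OR2 and 0.18 (SE 0.25, adjusted p = 0.772) in OR1, and the response within OR2 was -0.67 (SE 0.30, adjusted p = 0.739).

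The call of Bnip3 in treated OR1 was lost without treated MDA594 library 1 (adjusted p = 0.0664) or 3 (adjusted p = 0.279), without treated OR1 library 1 (adjusted p = 0.143), 2 (adjusted p = 0.106) or 4 (adjusted p = 0.13), without untreated OR1 library 3 (adjusted p = 0.0595) and without untreated OR2 library 1 (adjusted p = 0.0516) or 2 (adjusted p = 0.0514). In treated OR2 it was lost without treated MDA594 library 1 (adjusted p = 0.0721), 2 (adjusted p = 0.056) or 3 (adjusted p = 0.266), or treated OR2 library 1 (adjusted p = 0.0504) or 2 (adjusted p = 0.0689). The same happened there without treated OR1 library 1 (adjusted p = 0.0517), 2 (adjusted p = 0.0637) or 4 (adjusted p = 0.0592), untreated OR1 library 3 (adjusted p = 0.0582), or untreated OR2 library 1 (adjusted p = 0.0513) or 2 (adjusted p = 0.0512). The Bnip3 differences themselves stayed between 1.07 and 1.36 in OR1 and between 0.98 and 1.23 in OR2 when single libraries were left out. Over all 32 alternatives the adjusted p ran from 0.00905 to 0.33 in OR1 and from 0.0135 to 0.314 in OR2. With the title number in the model both calls were lost, at 1.67 (adjusted p = 0.134) in OR1 and 0.77 (adjusted p = 0.314) in OR2. Bnip3 lower in treated MDA594 than in untreated MDA594 passed the threshold without untreated MDA594 library 1 (adjusted p = 0.0275), treated OR2 library 1 (adjusted p = 0.0407) or treated OR2 library 3 (adjusted p = 0.0463).

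Ero1a encodes an oxidase that makes disulphide bonds in the endoplasmic reticulum. Ero1a had 8.30, 8.58 and 8.56 log2 CPM in treated OR2 tumours, against 10.14 and 9.57 in untreated OR2 tumours. Ero1a in OR1 had 9.14, 9.37, 7.66 and 9.58 log2 CPM in treated OR1 tumours, against 9.79, 9.79 and 8.89 in untreated OR1 tumours. Ero1a in MDA594 had 7.33, 7.03 and 7.64 log2 CPM in treated MDA594 tumours, against 8.72, 8.53, 8.59 and 8.81 in untreated MDA594 tumours. Treated libraries lay below untreated ones in OR2 and in MDA594, and treated OR1 library 3, at 7.66, stood well below the other treated OR1 libraries. The response was -1.37 (SE 0.52, adjusted p = 0.638) in OR2 and -1.29 (SE 0.43, adjusted p = 0.15) in MDA594, and treated OR1 differed from treated MDA594 by 1.64 (SE 0.43, adjusted p = 0.0892).

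Ddit4, an inhibitor of the growth kinase complex mTORC1, had 7.26, 6.44 and 6.99 log2 CPM in treated OR2 tumours, against 8.50 and 7.30 in untreated OR2 tumours. Ddit4 in OR1 had 7.31, 7.13, 6.41 and 7.26 log2 CPM in treated OR1 tumours, against 7.09, 6.99 and 6.96 in untreated OR1 tumours. Ddit4 in MDA594 had 5.96, 6.04 and 5.57 log2 CPM in treated MDA594 tumours, against 6.14, 6.79, 6.49 and 6.92 in untreated MDA594 tumours. Treated MDA594 libraries were all below untreated ones, and both treated resistant groups were above them without overlap. The difference was 1.07 (SE 0.36, adjusted p = 0.137) in treated OR2, 1.25 (SE 0.35, adjusted p = 0.105) in treated OR1 and 1.33 (SE 0.41, adjusted p = 0.2) in untreated OR2. The last passed the threshold without untreated OR2 library 2 (adjusted p = 0.0212). P4ha2, a catalytic subunit of the collagen prolyl hydroxylase, had 5.82, 5.08 and 4.74 log2 CPM in treated OR2 tumours, against 6.86 and 5.88 in untreated OR2 tumours. P4ha2 in OR1 had 6.51, 5.02, 5.07 and 6.83 log2 CPM in treated OR1 tumours, against 4.84, 5.16 and 5.36 in untreated OR1 tumours. P4ha2 in MDA594 had 4.71, 4.46 and 5.06 log2 CPM in treated MDA594 tumours, against 5.48, 5.22, 4.45 and 4.31 in untreated MDA594 tumours. Treated OR1 libraries 1 and 4 were above all untreated OR1 libraries and libraries 2 and 3 among them. The response of P4ha2 was 0.84 (SE 0.46, adjusted p = 0.886) in OR1, -1.16 (SE 0.55, adjusted p = 0.748) in OR2 and -0.17 (SE 0.46, adjusted p = 0.881) in MDA594. P4ha1, its sister subunit, ranged over 6.54 to 7.86 log2 CPM, with overlap between the groups of every comparison.

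Of the transporters, Slc2a1 imports glucose and Slc16a3 exports lactate. Slc2a1 had 6.48, 6.72 and 6.96 log2 CPM in treated OR2 tumours, against 7.63 and 7.12 in untreated OR2 tumours. Slc2a1 in OR1 had 6.98, 6.83, 6.09 and 7.21 log2 CPM in treated OR1 tumours, against 6.52, 6.88 and 6.65 in untreated OR1 tumours. Slc2a1 in MDA594 had 5.95, 5.65 and 5.82 log2 CPM in treated MDA594 tumours, against 6.58, 6.78, 6.44 and 6.46 in untreated MDA594 tumours. The treated MDA594 libraries were the 3 lowest of 19, and treated libraries lay below untreated ones in OR2 too. Treated OR2 differed from treated MDA594 by 0.91 (SE 0.26, adjusted p = 0.0884) and treated OR1 by 1.02 (SE 0.26, adjusted p = 0.0808). Without treated OR1 library 3 these passed the threshold, at adjusted p = 0.0458 and adjusted p = 0.0174, and without treated OR2 library 1 the OR1 difference did, at adjusted p = 0.0422. Slc16a3 had 5.33, 4.91 and 3.92 log2 CPM in treated OR2 tumours, against 4.79 and 6.07 in untreated OR2 tumours. Slc16a3 in OR1 had 5.74, 4.65, 5.90 and 5.87 log2 CPM in treated OR1 tumours, against 5.07, 5.13 and 4.45 in untreated OR1 tumours. Slc16a3 in MDA594 had 4.78, 5.14 and 5.88 log2 CPM in treated MDA594 tumours, against 5.19, 4.77, 5.03 and 4.41 in untreated MDA594 tumours. Groups overlapped in every comparison of Slc16a3, with a response of -0.71 (SE 0.58, adjusted p = 0.908) in OR2, 0.75 (SE 0.48, adjusted p = 0.9) in OR1 and 0.47 (SE 0.48, adjusted p = 0.652) in MDA594.

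The upper part of glycolysis, from glucose phosphorylation to triose phosphates, held 9 members including 2 regulators. Their median difference was 0.41 in treated OR2 and 0.36 in treated OR1 against treated MDA594, and 8 of 9 were higher in each. The exception was Hk1, the widely expressed hexokinase. Hk1 had 6.41, 6.90 and 7.03 log2 CPM in treated OR2 tumours, against 7.38 and 7.52 in untreated OR2 tumours. Hk1 in OR1 had 6.84, 6.55, 6.91 and 6.79 log2 CPM in treated OR1 tumours, against 6.83, 6.76 and 6.59 in untreated OR1 tumours. Hk1 in MDA594 had 7.03, 6.96 and 7.15 log2 CPM in treated MDA594 tumours, against 7.06, 7.57, 7.50 and 7.51 in untreated MDA594 tumours. Every OR1 library lay below every MDA594 library of the same treatment. The response of Hk1 was -0.67 (SE 0.21, adjusted p = 0.548) in OR2, where the groups did not overlap. Untreated OR1 differed from untreated MDA594 by -0.68 (SE 0.18, adjusted p = 0.146), which passed the threshold without untreated MDA594 library 1 (adjusted p = 0.0287) or treated OR2 library 1 (adjusted p = 0.0435).

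Hk2, the hexokinase induced by HIF in many tumours, ran the other way. Hk2 had 6.59, 6.72 and 7.04 log2 CPM in treated OR2 tumours, against 7.54 and 7.17 in untreated OR2 tumours. Hk2 in OR1 had 7.20, 6.92, 5.40 and 7.22 log2 CPM in treated OR1 tumours, against 7.42, 7.03 and 6.99 in untreated OR1 tumours. Hk2 in MDA594 had 6.01, 5.65 and 5.94 log2 CPM in treated MDA594 tumours, against 6.90, 6.85, 6.21 and 6.24 in untreated MDA594 tumours. All treated OR2 libraries were above all treated MDA594 ones, and in OR1 only library 3, at 5.40, was not. The difference was 0.91 (SE 0.41, adjusted p = 0.266) in treated OR2 and 0.90 (SE 0.40, adjusted p = 0.255) in treated OR1. Gpi1, which isomerises glucose 6-phosphate, had 8.35, 8.87 and 9.01 log2 CPM in treated OR2 tumours, against 9.32 and 9.33 in untreated OR2 tumours. Gpi1 in OR1 had 8.85, 8.97, 8.38 and 9.13 log2 CPM in treated OR1 tumours, against 9.16, 9.07 and 8.98 in untreated OR1 tumours. Gpi1 in MDA594 had 8.32, 8.28 and 8.38 log2 CPM in treated MDA594 tumours, against 8.75, 8.94, 9.21 and 9.24 in untreated MDA594 tumours. Treated MDA594 libraries lay below all untreated ones, and the same held in OR2. The response of Gpi1 was -0.67 (SE 0.21, adjusted p = 0.137) in MDA594 and -0.58 (SE 0.26, adjusted p = 0.733) in OR2.

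The other 6 genes of upper glycolysis were the phosphofructokinases Pfkl and Pfkp, the bifunctional enzymes Pfkfb3 and Pfkfb4 that set the level of their activator, the aldolase Aldoa and the triose phosphate isomerase Tpi1. Pfkfb3 had the largest differences among them, 1.35 (SE 0.42) in untreated OR2 and 1.04 (SE 0.36) in treated OR1, with no overlap of the groups in either. Its adjusted p was 0.209 in untreated OR2. Pfkfb4 was the member of this set with positive responses in both MDA594, at 0.34 (SE 0.29), and OR2, at 0.22 (SE 0.36). Pfkl, Aldoa and Tpi1 differed by 0.25, 0.44 and 0.40 in treated OR2, without overlap, and Pfkp by 0.10 with overlap.

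The 7 members of lower glycolysis and pyruvate use had a median difference of 0.02 in treated OR2 and 0.11 in treated OR1 against treated MDA594. In untreated OR2 all 7 were higher than in untreated MDA594, with differences of 0.27 to 0.58, and in the OR2 response all 7 were lower, with differences of -0.91 to -0.15 and no call. Pdk1, the kinase that shuts pyruvate out of the mitochondrial dehydrogenase, had the largest of the 7 differences between treated OR2 or treated OR1 and treated MDA594. Pdk1 had 7.96, 7.48 and 7.22 log2 CPM in treated OR2 tumours, against 7.85 and 7.99 in untreated OR2 tumours. Pdk1 in OR1 had 7.90, 7.45, 7.27 and 7.91 log2 CPM in treated OR1 tumours, against 7.91, 7.47 and 7.91 in untreated OR1 tumours. Pdk1 in MDA594 had 6.84, 6.86 and 7.05 log2 CPM in treated MDA594 tumours, against 7.72, 7.67, 7.58 and 7.57 in untreated MDA594 tumours. The treated MDA594 libraries were the 3 lowest of 19 and overlapped with no other group. The response of MDA594 was -0.71 (SE 0.20, adjusted p = 0.117), and treated OR2 and OR1 differed from treated MDA594 by 0.62 (SE 0.21, adjusted p = 0.138) and 0.74 (SE 0.20, adjusted p = 0.0993).

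Ldha, which turns pyruvate into lactate, had 9.23, 9.44 and 9.71 log2 CPM in treated OR2 tumours, against 9.72 and 9.77 in untreated OR2 tumours. Ldha in OR1 had 9.58, 9.26, 8.97 and 9.83 log2 CPM in treated OR1 tumours, against 9.73, 9.50 and 9.63 in untreated OR1 tumours. Ldha in MDA594 had 9.25, 9.50 and 9.56 log2 CPM in treated MDA594 tumours, against 9.23, 9.55, 9.29 and 9.15 in untreated MDA594 tumours. Treated libraries of the 3 lines overlapped, and the difference was 0.01 (SE 0.21) in treated OR2 and 0.01 (SE 0.21) in treated OR1. Gapdh, the dehydrogenase that yields the first NADH of the pathway, had 10.75, 11.32 and 11.52 log2 CPM in treated OR2 tumours, against 11.81 and 12.39 in untreated OR2 tumours. Gapdh in OR1 had 11.39, 11.28, 11.25 and 11.54 log2 CPM in treated OR1 tumours, against 11.40, 11.41 and 11.38 in untreated OR1 tumours. Gapdh in MDA594 had 11.13, 11.14 and 11.06 log2 CPM in treated MDA594 tumours, against 11.20, 11.67, 11.61 and 11.66 in untreated MDA594 tumours. The response of Gapdh was -0.91 (SE 0.30, adjusted p = 0.548) in OR2, where untreated OR2 library 2 was the highest of 19, and -0.42 (SE 0.24, adjusted p = 0.406) in MDA594, and neither pair of groups overlapped.

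Pkm, the pyruvate kinase of tumours, had 10.20, 10.34 and 10.65 log2 CPM in treated OR2 tumours, against 10.98 and 10.84 in untreated OR2 tumours. Pkm in OR1 had 10.47, 10.25, 9.99 and 10.71 log2 CPM in treated OR1 tumours, against 10.55, 10.44 and 10.58 in untreated OR1 tumours. Pkm in MDA594 had 10.43, 10.48 and 10.55 log2 CPM in treated MDA594 tumours, against 10.22, 10.76, 10.54 and 10.52 in untreated MDA594 tumours. The OR2 groups did not overlap, with a response of -0.51 (SE 0.25, adjusted p = 0.748), while the response of MDA594 was -0.02 (SE 0.20). Pgam1, a phosphoglycerate mutase, had 8.78, 8.89 and 9.44 log2 CPM in treated OR2 tumours, against 9.34 and 9.04 in untreated OR2 tumours. Pgam1 in OR1 had 9.23, 8.98, 8.97 and 9.25 log2 CPM in treated OR1 tumours, against 9.37, 9.16 and 9.11 in untreated OR1 tumours. Pgam1 in MDA594 had 8.96, 9.33 and 8.83 log2 CPM in treated MDA594 tumours, against 8.91, 9.08, 8.35 and 8.14 in untreated MDA594 tumours. All 3 untreated OR1 libraries were above all untreated MDA594 ones, by 0.52 (SE 0.24, adjusted p = 0.359), and Pgam1 was positive in the MDA594 response at 0.33 (SE 0.24). Pgk1 and Eno1 differed by 0.09 and -0.08 in treated OR2 and by 0.29 and -0.06 in treated OR1, with overlap. Several of these enzymes, Gapdh, Pgk1, Ldha, Eno1, Tpi1, Aldoa, Pgam1 and Pkm, have near-identical processed pseudogenes in the mouse genome, so reads could have been split between copies and their levels are uncertain to that extent.

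**Figure D5:**
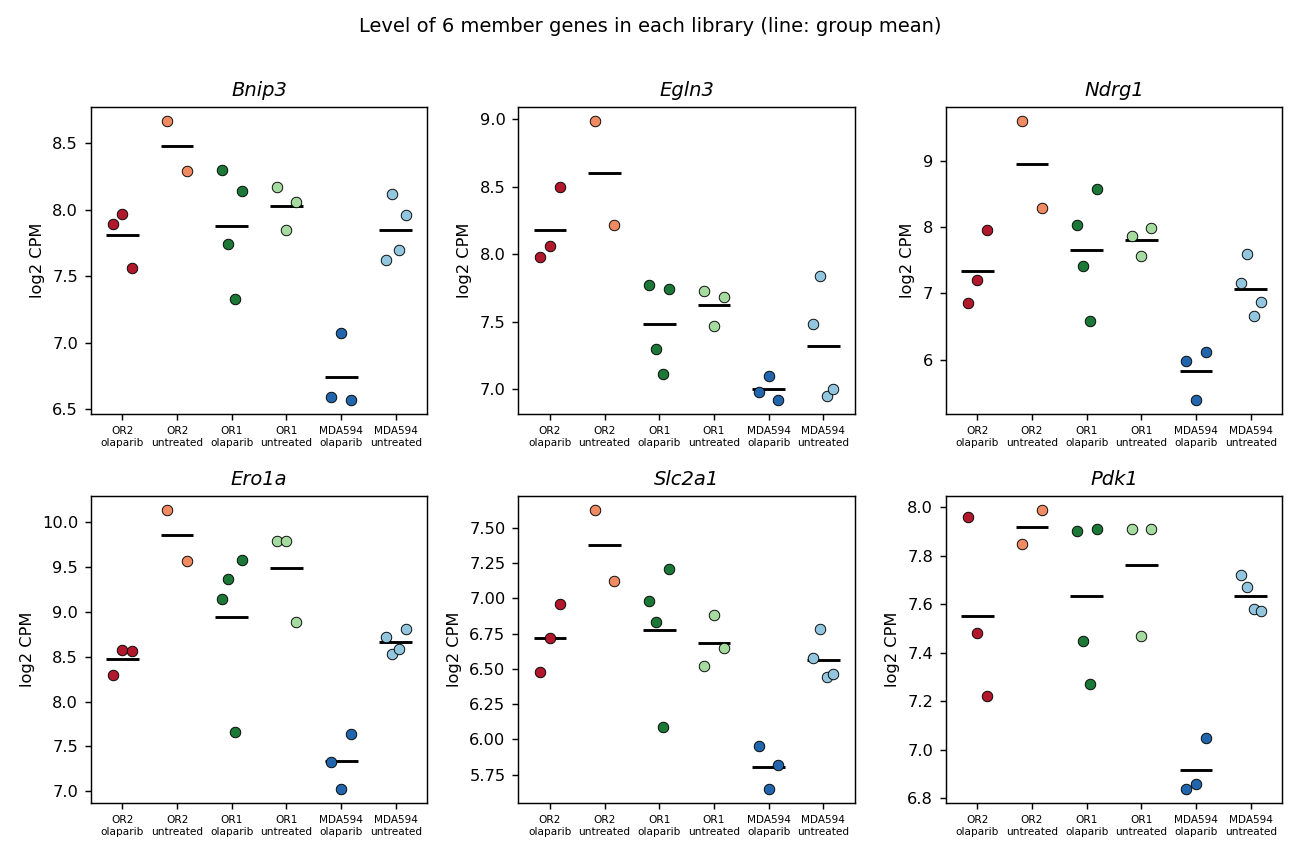
Log2 CPM (y axis) of Bnip3, Egln3, Ndrg1, Ero1a, Slc2a1 and Pdk1 in each library (points) by group (x axis), with a line at the group mean. The 3 treated MDA594 points are the lowest of 19 in the panels of Bnip3, Ndrg1, Ero1a, Slc2a1 and Pdk1, and all OR2 points of Egln3, at 7.98 to 8.99, are above the other lines.

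Other genes of the pathway were read from 5 lists that did not include the members, 103 genes in all, of which 97 were in the table and tested. Under olaparib, the 45 other hypoxia targets had a median difference of 0.08 in OR2 and 0.17 in OR1 against MDA594, and a median response of -0.02 in MDA594, 0.14 in OR1 and -0.25 in OR2. Of these 45, 38 were lower with olaparib in OR2 and 34 higher in untreated OR2 than in untreated MDA594, with 0 called. The 14 other glycolysis and lactate genes in the table had medians of -0.13 in treated OR2 and -0.08 in treated OR1, the 14 genes of pyruvate entry into mitochondria -0.18 and -0.27, and the 8 genes of the pentose phosphate pathway -0.21 and -0.32, again with 0 called in these 3 lists in any comparison. The 16 HIF regulators had medians of -0.03 and 0.11.

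Of the HIF regulators, limma called Hif1an lower in treated OR2 and OR1 and Cited2 higher in treated OR2. Hif1an encodes the asparaginyl hydroxylase that blocks the transactivation domain of HIF. Hif1an had 6.90, 6.52 and 6.67 log2 CPM in treated OR2 tumours and 7.03, 6.87, 6.89 and 6.85 in treated OR1 tumours, against 7.91, 8.16 and 8.13 in treated MDA594 tumours. The groups did not overlap, and Hif1an fell by 1.38 (SE 0.21, adjusted p = 0.0049) in treated OR2 and by 1.16 (SE 0.21, adjusted p = 0.0191) in treated OR1 relative to treated MDA594. Without olaparib the differences of Hif1an were -0.86 (adjusted p = 0.156) in OR2 and -0.51 (adjusted p = 0.31) in OR1. Cited2 competes with HIF for its coactivators. Cited2 had 6.41, 6.18 and 6.98 log2 CPM in treated OR2 tumours, against 5.44, 5.34 and 4.68 in treated MDA594 tumours. It rose by 1.43 (SE 0.33, adjusted p = 0.0409) in treated OR2 relative to treated MDA594 and differed by 1.28 (SE 0.32, adjusted p = 0.0808) in treated OR1. Without olaparib the differences of Cited2 were 1.1 (adjusted p = 0.276) in OR2 and 0.55 (adjusted p = 0.463) in OR1.

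Of the other hypoxia targets, limma called Rora and Klhl24. Rora, a nuclear receptor, had 5.12, 4.88 and 4.62 log2 CPM in treated MDA594 tumours, against 5.97, 5.96, 6.02 and 6.23 in untreated MDA594 tumours. With olaparib it fell by 1.19 in MDA594 (SE 0.19, adjusted p = 0.0495). Rora rose in treated OR1 relative to treated MDA594 by 1.44 (SE 0.19, adjusted p = 0.00466), with 6.46, 6.40, 6.02 and 6.22 in treated OR1 tumours. In treated OR2 tumours Rora, at 6.07, 5.85 and 5.38, rose by 0.92 (SE 0.19, adjusted p = 0.0282) relative to treated MDA594. Without olaparib the differences of Rora were 0.28 (adjusted p = 0.758) in OR2 and 0.02 (adjusted p = 0.975) in OR1. Klhl24, an adaptor of a ubiquitin ligase, had 7.45, 7.18 and 7.16 log2 CPM in treated OR2 tumours, against 6.69, 6.50 and 6.13 in treated MDA594 tumours. The groups did not overlap, and Klhl24 was higher in treated OR2 by 0.86 (SE 0.19, adjusted p = 0.0327). Without olaparib it differed by -0.1 (adjusted p = 0.942) in OR2. The response of Klhl24 was -0.86 (adjusted p = 0.0681) in MDA594 and 0.09 (adjusted p = 0.987) in OR2. Fits without single libraries covered Hif1an, Cited2, Rora and Klhl24 too, and their values there are not given here. In the MDA594 response limma called 0% of all genes without untreated MDA594 library 2 or treated MDA594 library 2 or 3. It also called 0% there without untreated OR1 library 1, 2 or 3, or treated OR1 library 1, 3 or 4. The fits with 1 averaged value per code, with only the groups compared and with voom called 0% in that response too. The call of Rora in MDA594 was therefore lost in all these fits, among others. In treated OR1 against treated MDA594 limma called 0% without treated MDA594 library 3, where the calls of Hif1an and Rora were lost.

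The titles also carry a number after the line's name, and library names fall into an ABA44 and an ABA45 series. What either marks is not given in the sources used here. Within the ABA45 libraries alone the median of the members was -0.48 in the OR2 response, -0.14 in the OR1 response and -0.28 in the MDA594 response. Treated OR2 and OR1 then differed from treated MDA594 by medians of 0.38 and 0.35, with 6 members called higher in OR2 and 9 higher and 2 lower in OR1. In that smaller fit limma called 12% and 20.9% of all genes. With the title number in the model, the median in treated OR2 against treated MDA594 was 0.06 and Egln3 differed by 0.08 (adjusted p = 0.936), while Bnip3 differed by 0.77 (adjusted p = 0.314). Both untreated OR2 libraries and treated OR2 libraries 2 and 3 share a number that no MDA594 library carries, so for them number and line cannot be told apart. The same holds in OR1, where all untreated libraries and treated libraries 2, 3 and 4 carry numbers that no MDA594 library carries.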

How the data were processed

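Per the labels' protocols, tumour RNA came from RNeasy Mini columns, and a KAPA kit gave stranded mRNA libraries. Reads were processed with STAR 2.7.10a, RSEM 1.3.1 and limma on build GRCm39, per the submitters' processing notes, and the annotation release is not given in the sources used here. For each gene the authors deposited a log2 CPM value, with all libraries in 1 table. Every value gave a whole read count back within 0.01, as log2 of reads plus 0.5 over an effective library size. Depth was therefore recovered, at 36.8 M to 118 M reads per library.

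From these values limma 3.58.1 (R 4.3.3, statmod 1.5.0) fitted a mean for each of the 6 groups, with libraries that share a host code treated as correlated (estimated correlation 0.404) and with a mean-variance trend. Shared codes were taken as 1 host which no label states in words. Genes above 0 log2 CPM in at least 2 libraries were kept, which removed 81. P-values were two-sided and adjusted by Benjamini-Hochberg over the 16330 genes tested, with a threshold of 0.05, and the scripts were tested on simulated data. The reads recovered went to limma's voom as an alternative, and the other alternatives stand in the closing section. Every library's value is given for members past the threshold in any comparison, for the 3 members with the smallest p in each comparison, and for Hif1a, Egln1, Egln3, Vegfa, Slc2a1, Ldha, Pdk1, Bnip3, Car9 and Hk2, and the other members are given by range and counts. Of the other pathway genes, up to 4 past the threshold per list and comparison are named. The members and lists were chosen with earlier results of these data known. Sequences came from RefSeq GRCm38.p6 and no coordinate was converted between builds.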

Additional observations from a re-analysis of the deposited data

Results flagged for a closer look

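In 4 of 70 sets of values, each from the 4 libraries of 1 group, a member had 1 library far from the others, where chance flags about 1 in 20. The sets share libraries and are not independent. Slc16a3 had 4.65 log2 CPM in treated OR1 library 2, against 5.74 to 5.90 in the other 3. Hk2 had 5.40 in treated OR1 library 3, against 6.92 to 7.22 in the other 3. Hk1 had 7.06 in untreated MDA594 library 1, against 7.50 to 7.57 in the other 3, and Gapdh had 11.20 in the same library, against 11.61 to 11.67. The library with conflicting treatment labels, which entered no comparison, lay above every untreated MDA594 library in 6 members, Vegfa, P4ha1, Slc16a3, Pfkfb3, Pgam1 and Ldha, and below all of them in 3, Kdm3a, Car9 and Gpi1.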

How the results depend on the processing

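Single members were followed one by one only if called or among the 3 smallest p-values of a comparison. None of those differences changed sign under the alternatives, and of their values 863 kept their side of the threshold, 58 gained it and 36 lost it. Over all 34 members, 11 changed sign with the title number in untreated OR2 against MDA594, and 11 in treated OR2. In the OR1 response 7 changed sign without treated OR1 library 4. 2 medians changed sign: that of the OR2 response minus that of MDA594 was 0.07 without untreated OR2 library 1, and that of the OR1 response was 0.02 without treated OR1 library 3. The medians moved in these cases: with the title number in the model they were 0.47 in untreated OR1, 0.23 in untreated OR2 and 0.06 in treated OR2 against MDA594; with the ABA45 libraries alone the OR1 response minus that of MDA594 was 0.02; and with single libraries left out the OR2 response minus that of MDA594 ran from -0.38 to 0.07. In treated OR1 against MDA594, the members called higher were 5 with quantile normalization (1.29% of all genes called in either direction), 6 with libraries of a code as independent (5.92%), 10 with only the groups compared (29.4%), 9 with the ABA45 libraries alone (20.9%), and 0 with 1 averaged value per code, with voom, with the title number or without the 2 libraries highest in muscle markers, and 0 to 6 with single libraries left out. Those called lower were 1 with independent libraries, 2 with only the groups compared and 2 with the ABA45 libraries alone. In treated OR2 the members called higher were 1 with only the groups compared (0.612% of all genes), 6 with the ABA45 libraries (12%), 0 with the title number (1.65%), 0 without the muscle-rich libraries and 0 to 3 with single libraries left out. In untreated OR2 they were 4 with independent libraries (3.32% of all genes), 14 with the ABA45 libraries (24.7%) and 0 to 3 with single libraries left out. In untreated OR1 the members called lower were 2 with independent libraries (3.21% of all genes), 1 with only the groups compared (0.135%), 1 with the ABA45 libraries (8.85%) and 0 to 2 with single libraries left out. In the MDA594 response the members called lower were 7 with independent libraries (6.27% of all genes), 10 with the ABA45 libraries (32%), 6 with the title number (19.1%) and 0 to 2 with single libraries left out, and those called higher were 2 with the ABA45 libraries and 2 with the title number. In the mean response those called lower were 6, 10 and 12 with independent libraries, the ABA45 libraries and the title number (2.99%, 13.9% and 14.9% of all genes), and 0 to 2 with single libraries left out. In the OR1 response minus that of MDA594 the title number gave 1 called higher and 1 lower (7.21% of all genes). The cause of these moves was not tested. With only the groups compared, no correlation within codes could be estimated for the OR2 response and for treated OR2 against MDA594, which were fitted without it. Leaving out an untreated OR2 library leaves 1, assumed to vary like the other groups. The alternative on muscle markers was chosen after seeing the data. Some title numbers are shared by treated and untreated libraries of 1 line, and the labels do not say what the number marks. Untreated MDA594 library 1 shares its number only with treated OR1 library 1, and untreated MDA594 library 2 only with treated OR2 library 1. Treated MDA594 library 3 shares its number with no other library compared, so it adds nothing to that fit. The fit therefore compares each resistant line with MDA594 through 1 pair of libraries of unlike treatment. Its MDA594 response rests on untreated libraries 3 and 4, of 1 code, and treated libraries 1 and 2, of another. In the fit with the title number the estimated correlation within codes was -0.127, and with the ABA45 libraries alone it was -0.298. With only the groups compared it was -0.383 for treated OR1 against MDA594.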
